A study of Saccharomyces cerevisiae with 21 samples.

Results

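Nuclear genes for mitochondrial ribosomal proteins were followed across 7 strains of budding yeast. They were taken by gene symbol, as every counted gene named *MRPL*, *MRPS*, *MRP* or *RSM* followed by a number. This gave 67 of the 7122 genes in the count table, and all 67 were among the 6164 genes with enough counts to be tested. By the systematic ribosomal protein names in the RefSeq annotation, 38 encode proteins of the large subunit and 27 encode proteins of the small subunit. Of the large-subunit proteins 24 have a bacterial counterpart and 14 are specific to mitochondria, and of the small-subunit proteins 17 and 10. The remaining 2, *MRP8* and *RSM22*, carry no such name. *MRP8* is described in the file as a gene of unknown function once taken for a mitochondrial ribosomal protein, and *RSM22* as a predicted methyltransferase.

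Mitochondria have their own ribosome, which in yeast translates the few proteins encoded by mitochondrial DNA, most of them membrane subunits of the respiratory chain and the ATP synthase. Nearly all of its proteins are encoded in the nucleus, made in the cytosol and imported, while both of its ribosomal RNAs and the small-subunit protein Var1 are encoded in the mitochondrion. Genes for cytosolic ribosomal proteins are transcribed as one strongly coordinated group that is turned down in many stresses, whereas in yeast the mitochondrial group is known for a separate control that follows the carbon source.

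The strains, all in the BY4741 background and harvested in exponential growth in synthetic medium, had 3 libraries each. They were *ino4Δ* (deleted for a subunit of the Ino2-Ino4 activator of phospholipid genes), *ino4Δ mga2ΔTM* (*ino4Δ* with a plasmid for Mga2 lacking its transmembrane domain), *mga2Δ* (deleted for the membrane-bound activator of the fatty acid desaturase gene *OLE1*), *mga2ΔTM* (*mga2Δ* with the same truncated Mga2), *MGA2* (*mga2Δ* with full-length Mga2), *OLE1* (wild type with Ole1) and wild type (WT). Plasmid proteins were fused to mCherry and expressed from the strong *GPD* promoter. The 4 plasmid strains grew in medium without uracil and the 3 others in complete medium. No WT with an empty plasmid was analysed, so the plasmid and the medium cannot be told apart from the expressed protein. The *ino4Δ mga2ΔTM* strain retains chromosomal *MGA2*, which the *mga2ΔTM* strain lacks. The labels do not say whether replicates were separate cultures, and p-values therefore measure the spread between libraries, which may be technical.

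In *mga2Δ* the deleted *MGA2* had 7 to 10 counts, and *INO4* had 10 to 29 counts across the 6 libraries deleted for it, against 140 to 181 in WT. Libraries held 12552418 to 18372240 counts, and the lowest count of any of the 67 genes in any library was 60. Mean counts of the 67 genes ran from 114.9 to 2446, with a median of 495.7. Their median coefficient of biological variation between replicates was 7.48%, against 8.97% over all tested genes. It was highest for *MRPL51* (20.2%) and *RSM27* (17.9%), so differences of these genes were the least precise. The 67 genes together made up 0.269% of counts in *ino4Δ mga2ΔTM* libraries, 0.260% in *ino4Δ*, 0.257% in *mga2Δ*, 0.236% in both *MGA2* and *OLE1*, 0.229% in *mga2ΔTM* and 0.228% in WT. The genes lie on 14 chromosomes, most of them on chromosomes IV (12), XIV (10) and XI (8). Because strand use in counting is not stated, reads of *MRP4*, *MRPL9*, *MRPL19*, *MRPL38*, *MRPL51* and *RSM7*, which overlap another open reading frame, cannot be separated from those of their partner.

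The mRNAs of the group differed in level. Per kilobase of coding sequence, in CPM (counts relative to library size, scaled by the trimmed mean of M-values, TMM), the median of the 67 genes was 49.5 in WT. *MRP8* was the highest, with 159.8, 222.4 and 165.2 CPM per kb in the WT libraries. It was followed by *MRPS12*, for the decoding-site protein uS12m (139.6, 152.7 and 141.0), and by *MRPL31*, for mL60 (118.6, 120.4 and 127.1). The lowest were *RSM22* (23.2, 23.2 and 22.1), *RSM27*, for mS33 (22.9, 19.1 and 11.9), and *MRPL4*, for uL29m (17.5, 16.9 and 15.6). The order was a gradual slope. Of its 66 pairs of neighbours only 6 had WT libraries that did not overlap, 4 of them among the 5 highest genes. The medians of large-subunit genes (51.5 CPM per kb) and small-subunit genes (49.4) were close, and the levels from *MRP8* down to *MRPL4* spanned 11-fold. *MRP8* was the highest of the 67 in every strain.

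**Figure D1:**
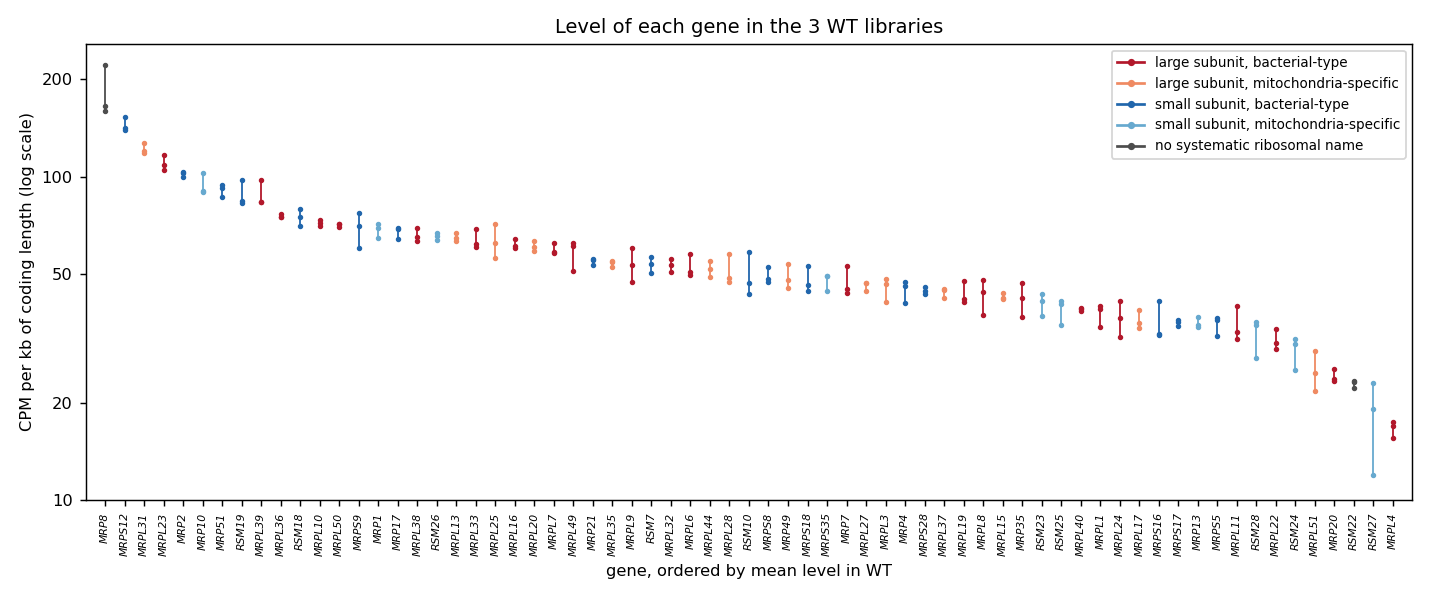
Level of each of the 67 genes in WT, in CPM per kb of coding length on a log scale, ordered by mean. Points are the 3 libraries and lines join the lowest to the highest. *MRP8* stands at the top with 159.8 to 222.4 and *MRPL4* at the bottom with 15.6 to 17.5, with large-subunit and small-subunit genes mixed between them.

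Against WT, the 67 genes stayed near their WT level in all 6 strains, also where many other genes did not. Calls required more than 1.5-fold and, in edgeR's quasi-likelihood test with Benjamini-Hochberg adjustment over all 6164 genes, an adjusted p under 0.05. Levels are relative to the counts of a library, so a change in RNA per cell shared by all genes would not be seen. In *ino4Δ*, 1 of the 67 rose (*MRP8*) and none fell, where 19.2% of all genes were called higher and 10.1% lower (29.3% either way). In *ino4Δ mga2ΔTM*, 1 rose (*MRPL28*) and none fell, against 17.9% and 9.30% of all genes (27.2% either way). In *mga2Δ*, 1 rose (*MRP8*) and none fell, against 9.52% and 2.38% (11.9% either way). None was called in *mga2ΔTM*, where 6.49% of all genes were called higher and 1.46% lower (7.95% either way), in *MGA2* (3.42% and 0.552%, 3.97% either way) or in *OLE1* (6.08% and 0.990%, 7.07% either way). For these 3 strains limma-voom and DESeq2 called none either, and 17, 0 and 8 of the 67 genes had an unadjusted p under 0.05 in edgeR.

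Confidence intervals show how closely each gene was held to its WT level. In *ino4Δ*, 63 of the 67 genes had a 95% confidence interval lying wholly inside 1.5-fold in both directions, against 47.8% of all genes and 58.5% of the 4268 genes within the same range of mean counts. The 4 others were *MRP8*, *MRP20*, *MRPL4* and *RSM27*. In *ino4Δ mga2ΔTM* it was 54 (48.9% of all genes, 59.9% in the same range), in *mga2Δ* 62 (59.3% and 69.0%), in *mga2ΔTM* 65 (68.6% and 79.8%), in *MGA2* 66 (73.1% and 83.4%) and in *OLE1* 65 (71.3% and 81.8%). The gene outside the interval in *MGA2* was *RSM27*, one of the noisiest. These intervals are per gene and are not widened for the number of genes.

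The median log2 fold change of the 67 genes was −0.08 in *ino4Δ*, 0.00 in *ino4Δ mga2ΔTM*, 0.04 in *mga2Δ*, −0.07 in *mga2ΔTM*, 0.00 in *MGA2* and 0.02 in *OLE1*, where the median of all genes was within 0.03 of 0. Scaling by library totals alone moved the median of all genes to 0.24 in *ino4Δ* and 0.23 in *ino4Δ mga2ΔTM*, and with it that of the 67 genes to 0.14 and 0.21, so the sign in *ino4Δ* depends on the scaling. That in *mga2ΔTM* does so too, at 0.02 with library totals. Relative to all genes the 67 stood at −0.11 under either scaling in *ino4Δ*, and at −0.03 (TMM) and −0.02 (library totals) in *ino4Δ mga2ΔTM*. Large-subunit genes had a median of −0.11 and small-subunit genes of −0.06 in *ino4Δ*.

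The 138 genes named as cytosolic ribosomal proteins behaved otherwise. In *ino4Δ* 112 of them fell and none rose, with a median log2 fold change of −0.78, and in *ino4Δ mga2ΔTM* 118 fell and none rose, with a median of −0.92. In *mga2Δ* 9 fell, with a median of −0.47, and in *mga2ΔTM*, *MGA2* and *OLE1* none were called, with medians of −0.37, −0.07 and −0.24. By library, the median deviation of the cytosolic genes from WT was −0.90 to −0.68 in *ino4Δ*, while that of the mitochondrial genes was −0.16 to 0.00, so the libraries of both groups were apart. Per kilobase, the median cytosolic gene was at 25.1 times the median mitochondrial gene in *ino4Δ* and 21.7 times in *ino4Δ mga2ΔTM*, against 40.4 times in WT.

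**Figure D2:**
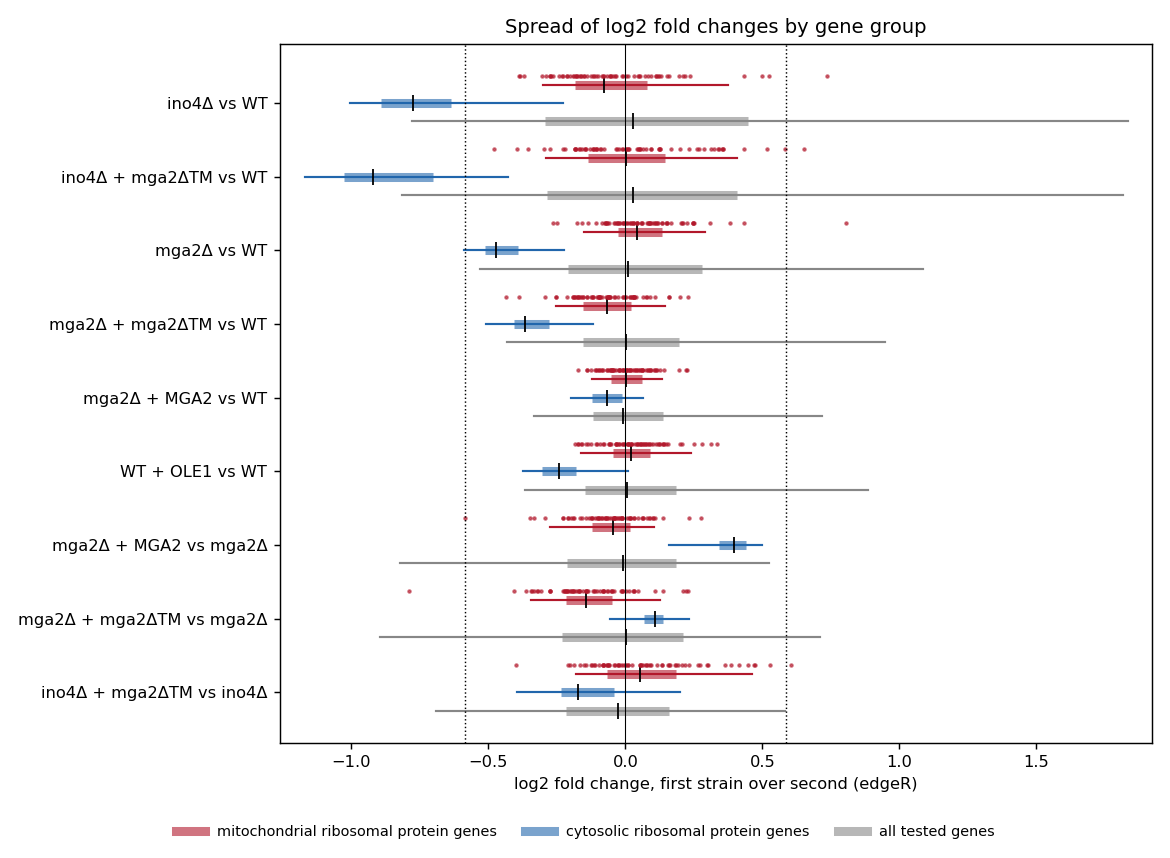
Log2 fold changes of the first strain over the second for mitochondrial ribosomal protein genes (red, with a point per gene), cytosolic ribosomal protein genes (blue) and all tested genes (grey); thick bars span the middle 50% of genes, thin lines the 5% to 95% range, ticks the medians, and dotted lines mark 1.5-fold. The thick red bars lie between the dotted lines in every comparison, while the blue bars lie at a median of −0.78 in *ino4Δ* and −0.92 in *ino4Δ mga2ΔTM* against WT.

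*MRP8* had the largest called fold changes of the group. It is YKL142W, 660 coding bases at chrXI:178515-179174 (R64, plus strand). It had 194.4, 201.6 and 205.6 CPM in *ino4Δ* and 178.6, 237.8 and 215.1 in *mga2Δ*, against 105.5, 146.8 and 109.0 in WT, and neither deletion strain overlapped WT. The log2 fold change was 0.74 ± 0.12 (SE, n = 3 libraries per strain) in *ino4Δ*, with an edgeR adjusted p of 3.78e-05, and 0.81 ± 0.12 in *mga2Δ*, with an edgeR adjusted p of 6.54e-05. It was called in both comparisons under every alternative and without any single library. *MRP8* stood at 157.5, 153.3 and 145.7 CPM in *ino4Δ mga2ΔTM*, 125.9, 125.3 and 114.2 in *mga2ΔTM*, 129.8, 129.2 and 162.5 in *MGA2* and 143.1, 121.3 and 132.9 in *OLE1*. None of these 4 was called against WT, with log2 fold changes of 0.34, 0.02, 0.22 and 0.14.

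*MRP8* was also compared between the Mga2 plasmid strains and the deletion strains they were built on. It fell in *mga2ΔTM* against *mga2Δ*, with a log2 fold change of −0.79 ± 0.12 (SE, n = 3, edgeR adjusted p = 5.48e-05) and no overlap of the libraries. In *MGA2* against *mga2Δ* it was −0.58 ± 0.12 (edgeR adjusted p = 0.00129), just short of the 1.5-fold minimum, and it passed that minimum without *MGA2* library 3 (−0.71), without *mga2Δ* library 1 (−0.69) or with library totals (−0.64). In *ino4Δ mga2ΔTM* against *ino4Δ* it was −0.40 ± 0.12 (edgeR adjusted p = 0.0174), under the fold minimum.

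Some general stress genes rose against WT in every strain, also in those where *MRP8* was not called. Of 20 listed genes of the general stress response, 20 rose in *ino4Δ*, 12 in *ino4Δ mga2ΔTM*, 20 in *mga2Δ*, 4 in *mga2ΔTM*, 7 in *MGA2* and 8 in *OLE1*, with median log2 fold changes of 1.72, 0.97, 1.61, 0.52, 0.86 and 0.70. Examples are the small heat shock gene *HSP26*, at 4.58 ± 0.19 (SE, n = 3, edgeR adjusted p = 3.92e-12) in *ino4Δ* and 3.32 ± 0.18 (edgeR adjusted p = 8.88e-10) in *mga2Δ*, and *HSP12*, at 2.33 and 2.17. WT library 2, the highest of WT for *MRP8*, was also the highest for the stress genes, whose median there was 0.68 above the WT mean on the log2 scale, against −0.21 and −0.42 in libraries 1 and 3. Of the same 20 genes 9 fell and 1 rose in *MGA2* over *mga2Δ*, against 6.02% and 2.86% of all genes. In *mga2ΔTM* over *mga2Δ* 14 fell (7.27% of all genes), and in *ino4Δ mga2ΔTM* over *ino4Δ* 11 fell (5.16%). Against WT, the share of all genes called higher was 19.2% in *ino4Δ*, 17.9% in *ino4Δ mga2ΔTM* and 9.52% in *mga2Δ*. It was 6.49% in *mga2ΔTM*, 3.42% in *MGA2* and 6.08% in *OLE1*. The part of the stress response in the *MRP8* values was not tested.

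The upstream regions of the 3 genes called in comparisons of 2 strains are shown, since these are the members that passed both the fold minimum and the adjusted p. Without the fold minimum, 41 of the 67 passed the adjusted p in at least 1 of the 9 comparisons, against 82.5% of all genes. Each is 250 bases, from 350 to 101 bases before the start codon, 5′ to 3′ on the coding strand (R64, RefSeq), with the letters of the searched motifs in capitals. The window of *MRP8* is chrXI:178165-178414, that of *MRPL28* chrIV:1385723-1385972 and that of *MRP1* chrIV:1168828-1169077, all on the plus strand. Of the *MRP8* window 8 bases belong to the neighbouring gene *LTV1*, and 44 bases of the *MRPL28* window to *CMI8*.
MRP8: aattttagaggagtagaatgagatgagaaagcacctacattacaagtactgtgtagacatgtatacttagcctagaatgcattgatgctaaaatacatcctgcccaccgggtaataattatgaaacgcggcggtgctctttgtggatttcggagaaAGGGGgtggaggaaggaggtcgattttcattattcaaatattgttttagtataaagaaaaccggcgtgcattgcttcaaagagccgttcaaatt
MRPL28: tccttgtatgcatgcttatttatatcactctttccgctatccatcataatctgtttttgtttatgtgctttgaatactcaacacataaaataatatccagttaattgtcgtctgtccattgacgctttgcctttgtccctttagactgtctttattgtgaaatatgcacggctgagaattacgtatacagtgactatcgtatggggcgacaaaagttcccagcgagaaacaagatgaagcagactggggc
MRP1: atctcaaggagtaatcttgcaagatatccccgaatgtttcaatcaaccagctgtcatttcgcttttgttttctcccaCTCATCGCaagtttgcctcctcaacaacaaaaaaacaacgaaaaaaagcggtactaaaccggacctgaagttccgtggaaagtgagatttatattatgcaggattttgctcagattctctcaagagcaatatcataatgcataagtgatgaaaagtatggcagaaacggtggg

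The *MRP8* window holds the letters AGGGG, the core of the stress response element bound by Msn2 and Msn4 in yeast. On either strand, AGGGG was found in 6 of the 67 members (8.96%) and in 20.2% of 5990 genes with a window of this length, and it was searched after the values were seen. The *MRP1* window holds CTCATCGC, the reverse complement of the PAC motif GCGATGAG of yeast ribosome biogenesis genes, found in 4 members (*MRP1*, *MRPL6*, *MRPS16* and *RSM19*, 5.97%) and in 3.17% of all genes. None of the searched motifs was found in the *MRPL28* window. The core of the Ino2-Ino4 site, CATGTG, was in 3 members (4.48%) and 7.53% of all genes, and the Hap complex core CCAAT in 18 (26.9%) and 37.7%. AAAATTTT was in 3 (4.48%) and 8.30%. ACTCAACAA was in 0 and 0.150%. A match of letters is not a bound site.

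The members described next, other than those called, were chosen after their values were seen. In *ino4Δ* small shifts went in both directions. Whatever the fold, 5 of the 67 genes were higher and 16 lower at the adjusted p threshold, against 31.9% and 28.2% of all genes. After *MRP8* the highest was *MRP20*, for uL23m at the rim of the peptide exit tunnel. It had 26.8, 27.5 and 28.3 CPM in *ino4Δ*, against 20.1, 18.8 and 18.5 in WT, without overlap. Its log2 fold change was 0.53 ± 0.14 (SE, n = 3, edgeR adjusted p = 0.00404). *MRPL4* followed at 0.50 ± 0.10 (edgeR adjusted p = 0.000230), with 22.2, 20.5 and 24.9 CPM in *ino4Δ*, against 16.8, 16.2 and 14.9 in WT. Both missed the fold minimum and passed it when libraries were scaled by their totals, at 0.74 and 0.72.

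The lowest member in *ino4Δ* was *MRPL10*, for uL15m, with 50.5, 53.1 and 55.7 CPM in *ino4Δ*, against 68.0, 71.2 and 69.5 in WT (−0.39 ± 0.07, SE, n = 3, edgeR adjusted p = 5.36e-05). *RSM26*, for mS42, which in yeast resembles manganese superoxide dismutase, had 40.8, 39.1 and 40.5 CPM in *ino4Δ*, against 50.9, 53.6 and 52.6 in WT (−0.38 ± 0.08, edgeR adjusted p = 0.000252). *RSM26* was also under WT, at the adjusted p threshold but not the fold minimum, in *ino4Δ mga2ΔTM* (−0.48 ± 0.08), *mga2Δ* (−0.26 ± 0.08) and *mga2ΔTM* (−0.44 ± 0.08), and in each of them no library overlapped WT. With library totals it stood at −0.17, −0.27, −0.17 and −0.35 in these 4 strains. In *MGA2* and *OLE1* its log2 fold changes were −0.13 and −0.16, with libraries that overlapped WT.

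**Figure D3:**
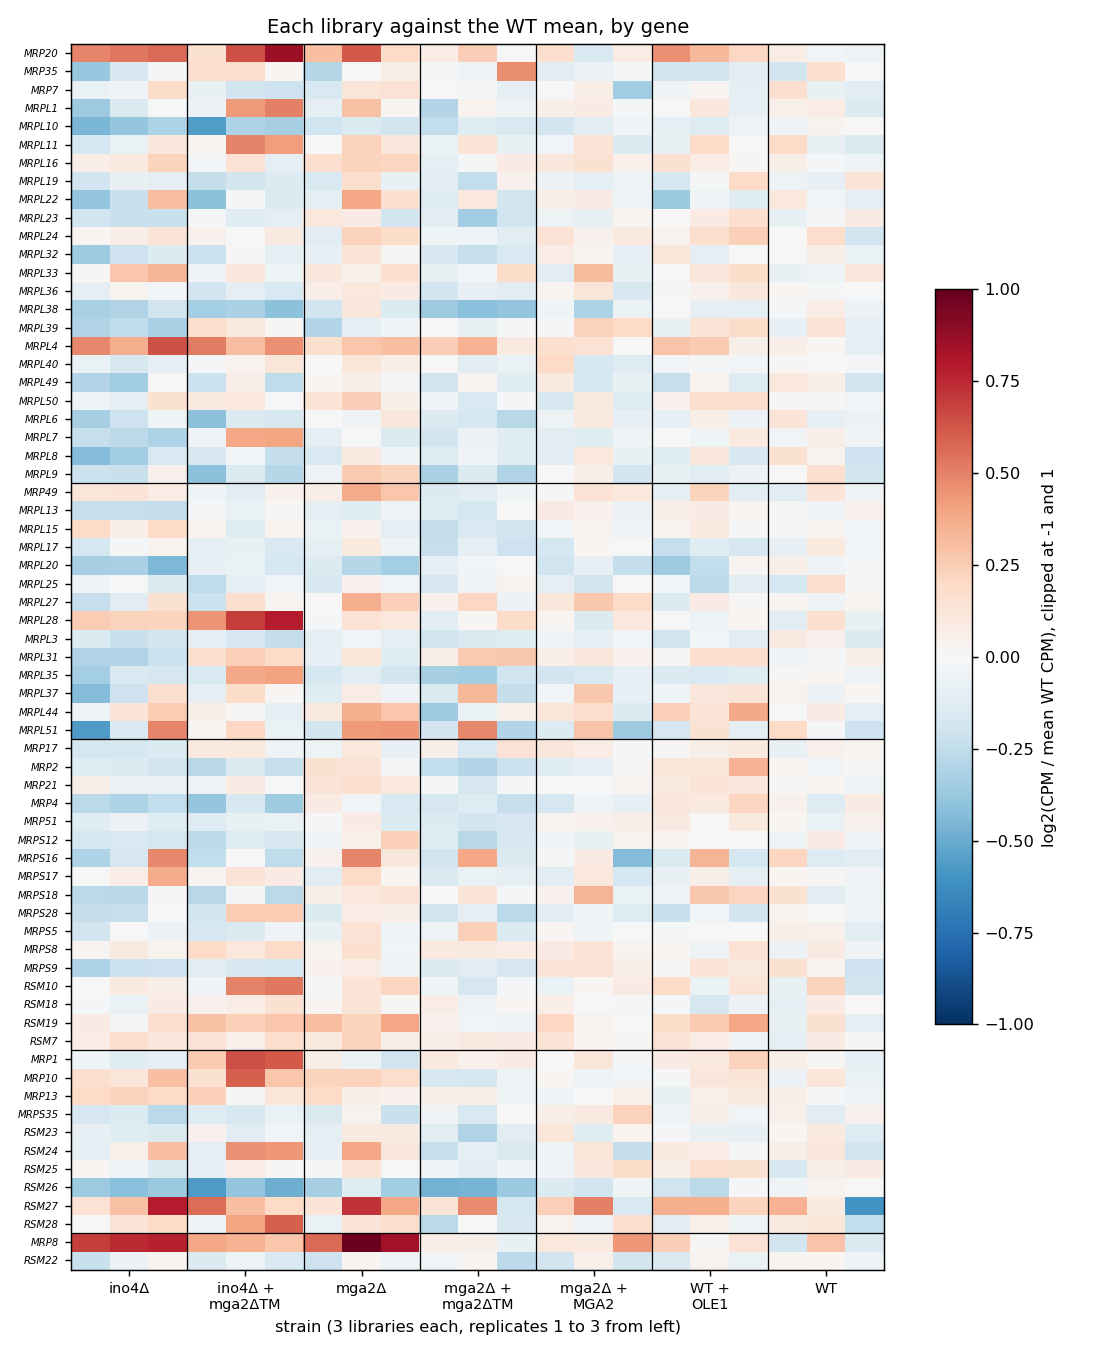
Each of the 67 genes (rows, grouped as large subunit bacterial-type, large subunit mitochondria-specific, small subunit bacterial-type, small subunit mitochondria-specific and without a systematic name) in each of 21 libraries (columns, 3 per strain), as log2 of its CPM over the mean WT CPM. Most cells are pale; *MRP8* is high in *ino4Δ* and *mga2Δ*, *MRPL28* and *MRP1* in *ino4Δ mga2ΔTM*, and *RSM26* is low in 4 strains.

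In *ino4Δ mga2ΔTM*, 12 genes were higher and 9 lower than WT at the adjusted p threshold, against 30.3% and 26.9% of all genes. Of the 12, *MRP1*, *MRP10*, *MRP20*, *MRPL7*, *MRPL11*, *MRPL28*, *RSM10* and *RSM28* lie on chromosome IV, and none of the 9 does. The called gene was *MRPL28*, YDR462W at chrIV:1386073-1386516 (R64, plus strand), for the mitochondria-specific large-subunit protein mL40. It had 31.03, 36.73 and 39.27 CPM in *ino4Δ mga2ΔTM*, against 21.02, 25.61 and 21.62 in WT, without overlap (0.65 ± 0.10, SE, n = 3, edgeR adjusted p = 1.83e-05). Without *ino4Δ mga2ΔTM* library 3 it stood at 0.57 and was no longer called. Its level in *ino4Δ* was 27.1, 26.7 and 26.5 CPM, and *ino4Δ mga2ΔTM* over *ino4Δ* gave 0.42 ± 0.10 (edgeR adjusted p = 0.00375), under the fold minimum.

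*MRP1*, YDR347W at chrIV:1169178-1170143 (R64, plus strand), for mS43, the other superoxide dismutase-like protein of the small subunit, rose in *ino4Δ mga2ΔTM* over *ino4Δ*. It had 79.5, 103.5 and 101.2 CPM in *ino4Δ mga2ΔTM*, against 64.2, 61.0 and 62.0 in *ino4Δ* and 69.2, 66.8 and 62.6 in WT. The log2 fold change over *ino4Δ* was 0.60 ± 0.09 (SE, n = 3, edgeR adjusted p = 4.19e-05), just over the minimum. It was the 1 gene that rose, and none fell, where 4.30% of all genes were called higher and 5.16% lower. Against WT it was 0.52 ± 0.09 (edgeR adjusted p = 4.76e-05), under the minimum. Without *ino4Δ mga2ΔTM* library 2 or 3 the difference from *ino4Δ* was 0.54 or 0.57 and was not called. Both *MRP1* and *MRPL28* lie on chromosome IV, where libraries 2 and 3 of *ino4Δ mga2ΔTM* exceeded library 1 for all 12 members. An effect on these single genes therefore cannot be told apart from a shift shared by the chromosome, which was not tested.

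**Figure D4:**
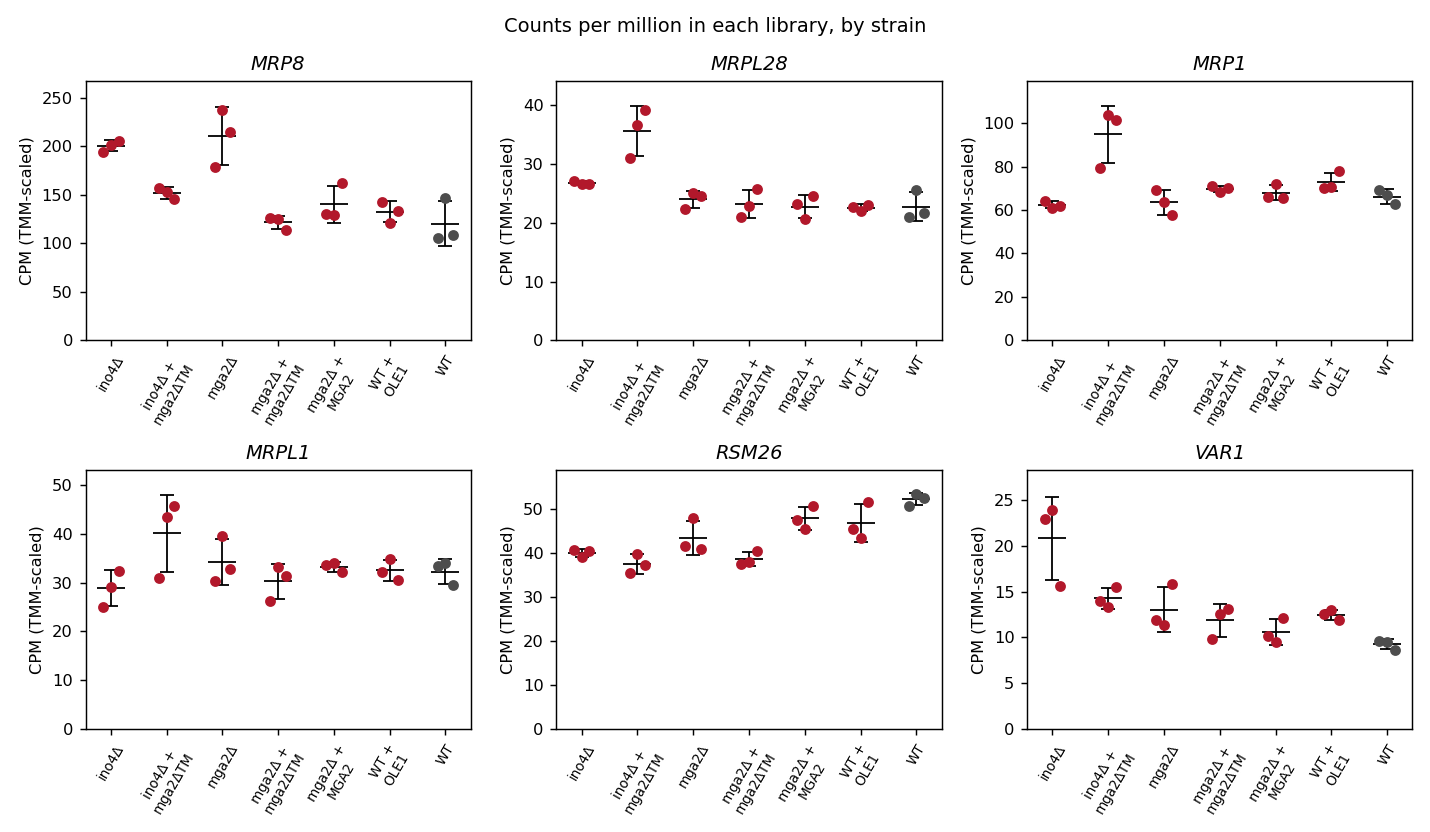
TMM-scaled CPM of 6 genes in each library (points), with the mean (bar) and SD (whiskers) of 3 libraries per strain; a plus sign in a strain label marks a plasmid, and WT is grey. *MRP8* reaches 178.6 to 237.8 CPM in *ino4Δ* and *mga2Δ*, against 105.5 to 146.8 in WT. The first *ino4Δ mga2ΔTM* library lies under the others of its strain for *MRPL28*, *MRP1* and *MRPL1*, all on chromosome IV.

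Library 1 of *ino4Δ mga2ΔTM* differed from libraries 2 and 3 for these genes. It was the lowest of its strain for 35 of the 67 genes (52.2%) and for 33.4% of all genes. Among the 35 were all 12 members on chromosome IV. Without it, 4 members were called over *ino4Δ* (*MRP1*, *MRPL1*, *MRPL7* and *MRPL35*) in place of 1, and 3 over WT (*MRP1*, *MRP20* and *MRPL28*) in place of 1. All of these lie on chromosome IV. Without WT library 1, 2 members were called over WT in *ino4Δ mga2ΔTM* (*MRP20* and *MRPL28*) and 2 in *ino4Δ* (*MRP8* and *RSM27*), each in place of 1. In *mga2Δ*, library 2 was the highest of its strain for 47 of the 67 genes and for 35.6% of all genes, and in *ino4Δ*, library 1 was the lowest for 37 (55.2%) and for 32.9% of all genes. Other libraries were the lowest as often. These were *mga2Δ* library 1 for 40 (59.7%, against 44.7% of all genes), WT library 3 for 36 (53.7% and 32.3%) and *OLE1* library 1 for 34 (50.7% and 36.9%).

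In *mga2Δ* 4 members were higher and 3 lower than WT at the adjusted p threshold, against 20.6% and 19% of all genes. Besides *MRP8* they were *MRP20*, *RSM19* and *MRPL16* above WT and *RSM26*, *MRPL20* and *MRPL10* below it, with log2 fold changes of −0.26 to 0.38. In *mga2ΔTM* 6 were lower and 0 higher (11.2% and 12.8% of all genes), from *MRP51* at −0.16 to *RSM26* at −0.44. No gene passed in *MGA2* in either direction, against 6.16% of all genes higher and 3.50% lower. In *OLE1* 1 was higher and none lower, against 11.1% and 9.80% of all genes. It was *RSM19*, for uS19m, at 0.28 ± 0.08 (SE, n = 3, edgeR adjusted p = 0.0226). The members in *MGA2* lay between −0.17 (*MRPL20*) and 0.22 (*RSM27*), the narrowest range of the 6 strains.

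The plasmids were also set against their own background. In *MGA2* over *mga2Δ* none of the 67 was called, against 2.86% of all genes higher and 6.02% lower (8.87% either way). In edgeR 8 had an unadjusted p under 0.05, and limma-voom and DESeq2 called none. In *mga2ΔTM* over *mga2Δ* 1 fell (*MRP8*, above) and none rose, against 7.27% and 5.63% of all genes. Most of the group lay slightly lower there: 56 of 67 genes were below 0, with a median of −0.14 where that of all genes was 0.00, and 14 were lower and 1 higher at the adjusted p threshold, against 17.5% and 16.4% of all genes. These included *MRPL9* for uL3m (−0.41 ± 0.11), *MRP2* for uS14m (−0.34 ± 0.07) and *MRPS12* (−0.27 ± 0.07). The gene that was higher was *MRPL31* (0.22 ± 0.07). When single libraries were left out, the median of the 67 ran from −0.175 (without *mga2Δ* library 1) to −0.096 (without *mga2Δ* library 2). The latter library was the highest of its strain for 47 of the 67 genes, and for 35.6% of all genes.

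In *ino4Δ mga2ΔTM* over *ino4Δ* the median of the group was 0.06, and 11 genes were higher and 1 lower (*MRP8*) at the adjusted p threshold, against 13.7% and 15% of all genes. Of the 11, 9 were among the 38 large-subunit genes and 2 among the 27 small-subunit genes, a split that was not tested, and the median was 0.06 for each subunit. By location, *MRP1*, *MRPL1*, *MRPL7*, *MRPL11*, *MRPL28* and *MRPL35* of the 11 lie on chromosome IV, which was not tested either. *MRPL7*, for uL5m, had 50.9, 68.5 and 68.7 CPM in *ino4Δ mga2ΔTM*, against 44.6, 43.7 and 42.2 in *ino4Δ* (0.53 ± 0.09, SE, n = 3, edgeR adjusted p = 0.000167). *MRPL31* had 54.1, 56.9 and 55.3, against 39.2, 39.2 and 41.7 (0.47 ± 0.07, edgeR adjusted p = 8.41e-05), and here the 3 plasmid libraries were close together.

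The effect of Mga2ΔTM was then compared between both backgrounds, as its log2 effect over *mga2Δ* minus its log2 effect over *ino4Δ*. Of the 67 genes 1 was called lower and none higher, against 1.40% and 1.90% of all genes. It was *MRPL1*, for uL1m of the mobile stalk, YDR116C at chrIV:682724-683581 (R64, minus strand). It had 31.0, 43.5 and 45.8 CPM in *ino4Δ mga2ΔTM*, against 25.1, 29.2 and 32.4 in *ino4Δ*, and 26.3, 33.1 and 31.4 in *mga2ΔTM*, against 30.4, 39.6 and 32.8 in *mga2Δ*. The difference of effects was −0.65 ± 0.19 (SE, n = 3, edgeR adjusted p = 0.0467). *MRPL1* was chosen after its values were seen. Its call was lost with limma-voom (adjusted p = 0.0547), with library totals, without the filter on low counts and with the compared strains alone. It was also lost in 8 of the 12 fits that left out 1 library, with values of −0.83 to −0.54 over the 12, while the number of members called ran from 0 to 10 in edgeR when single libraries were left out, 10 of them without *ino4Δ mga2ΔTM* library 1. Whatever the fold, 6 members were lower at the adjusted p threshold and none higher, against 2.90% and 3.44% of all genes, and the median over the 67 was −0.20 where that of all genes was 0.02. The 10 members called without *ino4Δ mga2ΔTM* library 1, *MRPL1* among them, all lie on chromosome IV, and a shift shared by that chromosome was not tested. The strains differ in chromosomal *MGA2* as well as in *INO4*, and these cannot be told apart.

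The mitochondrially encoded member of the ribosome, *VAR1*, did not stay with the nuclear genes. It had 22.9, 23.9 and 15.6 CPM in *ino4Δ* and 13.9, 13.3 and 15.5 in *ino4Δ mga2ΔTM*, against 9.63, 9.55 and 8.60 in WT, with no overlap. *VAR1* was also above every WT library in *mga2Δ* (11.9, 11.35 and 15.82), *mga2ΔTM* (9.847, 12.6 and 13.14) and *OLE1* (12.55, 12.98 and 11.9). In *MGA2* (10.14, 9.52 and 12.15) it overlapped WT. *VAR1* rose in *ino4Δ* by a log2 fold change of 1.17 ± 0.16 (SE, n = 3, edgeR adjusted p = 5.75e-06) and in *ino4Δ mga2ΔTM* by 0.62 ± 0.16 (edgeR adjusted p = 0.00309). Of all genes 19.2% and 17.9% were called higher in these strains. In *mga2Δ* it was at 0.49 ± 0.16 (edgeR adjusted p = 0.0242), under the fold minimum, and was called with library totals, at 0.586. It was not called in *mga2ΔTM* (0.355), *OLE1* (0.43) or *MGA2* (0.194). In *ino4Δ mga2ΔTM* the call was lost without library 3 of that strain, at 0.56, and without WT library 3, at 0.58. Remaining 15S and 21S rRNA of the mitochondrion varied widely between libraries of one strain, for 15S at 307.2, 141.9 and 107.4 CPM in WT, after an rRNA depletion, and was called in no comparison. Their log2 fold changes in *ino4Δ* were 0.49 ± 0.32 and 0.61 ± 0.27 (edgeR adjusted p = 0.195 and 0.0595).

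Other genes of mitochondrial translation were taken in short lists, whose counts were not tested against the share of all genes called either way. That share was 29.3% in *ino4Δ*, 27.2% in *ino4Δ mga2ΔTM*, 11.9% in *mga2Δ*, 7.95% in *mga2ΔTM*, 3.97% in *MGA2* and 7.07% in *OLE1*. Of 12 mitochondrial ribosomal protein genes with other kinds of names, 1 fell in *ino4Δ*, *MNP1* for the stalk protein bL12m (−0.63 ± 0.06, SE, n = 3, edgeR adjusted p = 1.18e-07), and none was called in the other 5 strains against WT. With library totals *MNP1* stood at −0.41 and was not called. *RTC6*, for bL36m, rose by 0.61 ± 0.08 in *mga2ΔTM* over *mga2Δ* and by 0.60 ± 0.08 in *ino4Δ mga2ΔTM* over *ino4Δ* (edgeR adjusted p = 8.56e-06 and 1.35e-05), each just above the minimum. Of all genes 5.63% and 4.30% were called higher there. None of the 12 was called in *MGA2* over *mga2Δ*. The *RTC6* calls were lost without *mga2ΔTM* library 3, at 0.56, and without *ino4Δ mga2ΔTM* library 1, at 0.55. *EHD3*, for mS47, differed between the backgrounds in its response to Mga2ΔTM, at −0.77 ± 0.11 (edgeR adjusted p = 0.000357), where 1.40% of all genes were called lower. *EHD3* (YDR036C) also lies on chromosome IV. Its difference was −0.89 without *ino4Δ mga2ΔTM* library 1 and −0.71 without library 2, and a shift shared by the chromosome was not tested. Of 9 translation factors 1 fell in *ino4Δ mga2ΔTM*, *TUF1* for the mitochondrial elongation factor Tu (−0.66 ± 0.05, edgeR adjusted p = 4.09e-09), which stood at −0.45 and was not called with library totals.

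Of 16 genes for charging mitochondrial tRNAs 1 rose in *ino4Δ*, *GTF1* for a subunit of the glutamyl-tRNA amidotransferase (0.85 ± 0.16, SE, n = 3, edgeR adjusted p = 0.000149). Of 13 translational activators *PET122*, which acts on the *COX3* mRNA, rose in *ino4Δ* (0.69 ± 0.11, edgeR adjusted p = 3.55e-05, not called at 0.58 without *ino4Δ* library 2) and in *OLE1* (0.95 ± 0.11, edgeR adjusted p = 5.43e-06). None of 6 measured assembly and rRNA modification genes, 4 genes of mitochondrial transcription and the nucleoid, or 10 listed regulators was called against WT in any strain. Over the 9 comparisons of 2 strains, 64 of the 67 ribosomal protein genes were called in none, against 41.6% of all genes called in at least 1.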

How the data were processed

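Total RNA depleted of rRNA was sequenced in 3 libraries of each of 7 strains. The deposited values are raw read counts per gene, which the authors made with STAR 2.5.1b and HTSeq 0.5.4p3 on the R64 genome, per the submitters' processing notes; strand use in counting is not given in the sources used here. A table of normalized values was not used, and 4 of 7126 lines name no gene and were left out. Groups came from the sample labels.

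Genes were kept with edgeR's filter (minimum count 10, minimum total 15), scaled by TMM and fitted over all 21 libraries with edgeR 4.0.16 (quasi-likelihood test, two-sided) in R 4.3.3. Reads per library (12552418 to 18372240) limit the precision of low genes. Alternatives were limma-voom (limma 3.58.1), DESeq2 1.42.0, RLE size factors, library totals, no filter, no fold minimum, a replicate block, the compared strains alone and each library left out. The fit was tested on simulated data. Figures were drawn with matplotlib 3.10.9.

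The members and gene lists were chosen with earlier results of these data known. Named were all called members in comparisons of strains (at most 6 per direction), the 3 highest and 3 lowest in WT, *MRP8*, *RSM22*, *VAR1* and called genes of the lists; others were chosen after their values were seen. The cytosolic list was taken by symbol and includes *RPP1*, which encodes an RNase P subunit.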

Additional observations from a re-analysis of the deposited data

Results flagged for a closer look

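For 6 genes the effect of Mga2ΔTM over *mga2Δ* differed from its effect over *ino4Δ* in edgeR's quasi-likelihood test of that difference, at an adjusted p under 0.05 whatever the fold. The log2 differences were −0.58 for *MRPL7* (adjusted p = 0.00884), −0.50 for *RSM19* (adjusted p = 0.0139), −0.58 for *MRPL35* (adjusted p = 0.0210), −0.47 for *MRP1* (adjusted p = 0.0273), −0.49 for *MRP10* (adjusted p = 0.0323) and −0.65 for *MRPL1* (adjusted p = 0.0467). All 6 were lower in the first background than in the second. *MRPL1* was the only one past 1.5-fold in this fit. In *ino4Δ mga2ΔTM*, library 1 was under libraries 2 and 3 for 5 of the 6 genes (*MRPL7*, *MRPL35*, *MRP1*, *MRP10* and *MRPL1*) and not for *RSM19*. These 5 lie on chromosome IV and *RSM19* on chromosome XIV. All 12 members on chromosome IV were lowest in library 1 of that strain. Effects on single genes therefore cannot be told apart from a shift shared by the chromosome. The part of library 1 in these differences was not tested beyond leaving it out.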

How the results depend on the processing

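No result changed sign while called. With library totals as the scaling, 4 members were called in *ino4Δ* and 4 in *ino4Δ mga2ΔTM* against WT, 1 in *MGA2* over *mga2Δ* and 0 in the difference between backgrounds, and the group's median log2 fold change against WT was 0.139 in *ino4Δ*, 0.210 in *ino4Δ mga2ΔTM*, 0.142 in *mga2Δ* and 0.021 in *mga2ΔTM*. Without the fold minimum, 21, 21, 7, 6, 0 and 1 members passed in *ino4Δ*, *ino4Δ mga2ΔTM*, *mga2Δ*, *mga2ΔTM*, *MGA2* and *OLE1* against WT, 4 in *MGA2* over *mga2Δ*, 15 in *mga2ΔTM* over *mga2Δ*, 12 in *ino4Δ mga2ΔTM* over *ino4Δ* and 6 in the difference between backgrounds. That difference had 1 called member in edgeR, 0 with limma-voom, 3 with DESeq2, 3 with RLE size factors and 0 without the filter. The cause of these shifts was not tested.

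When single libraries were left out, called members ran from 1 to 2 in *ino4Δ*, from 0 to 3 in *ino4Δ mga2ΔTM*, from 0 to 1 in *MGA2* over *mga2Δ*, from 0 to 4 in *ino4Δ mga2ΔTM* over *ino4Δ* and from 0 to 10 in the difference between backgrounds. The median ran from −0.139 to −0.066 in *ino4Δ* and from −0.287 to −0.128 in the difference between backgrounds. Counts of intervals inside 1.5-fold, added after seeing the data, stayed within 1.5 times under all alternatives run.

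Same-numbered libraries of different strains had a mean r of 0.018 between their deviations (63 pairs, −0.352 to 0.448, 20 over 0.1). Differently numbered libraries had a mean of −0.01. A batch shared by only some strains could average out in this mean, so it cannot decide whether the numbers pair libraries. With the replicate block the number of called members was 1 in *ino4Δ* and the same as without it in each of the 10 comparisons, and calls over all genes were 1807 in *ino4Δ* in place of 1805.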
